A study of Mus musculus with 33 samples.

Results

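The 12 libraries described here are VDJ-seq libraries of the immunoglobulin kappa light chain locus (Igk) from pro-B cells, 6 of Wapl(+/+) and 6 of Wapl(dP1,2/dP1,2) mice, chosen by their labels of cell type and genotype from the 33 samples of the series. VDJ-seq captures recombined gene segments from genomic DNA and gives the share of joints that contain each variable gene. The pro-B cells were sorted directly from bone marrow of C57BL/6 mice as Kit+ CD25- cells that carried B220 and lacked IgM and IgD, and by the study's methods the mice were 4 to 5 weeks old. Wapl(dP1,2/dP1,2) mice carry, on both alleles, a deletion of the binding site P1 for the transcription factor Pax5 in the Wapl promoter and of a region downstream of Wapl that holds a second site, P2. Neither group received a treatment. The deletion is in the germ line and thus in all cells of the mouse, not in B cells alone, and Wapl itself was not measured in these libraries. In DNA libraries the cell type cannot be checked by marker genes. The 8 Igk libraries of pre-B cells, 4 of each genotype, serve below as a comparison.

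Wapl unloads the cohesin ring from chromatin and so limits how far cohesin extrudes DNA loops, and Pax5 keeps Wapl low in early B cells. The Vκ genes lie in a long array on 1 side of the Jκ elements, in both orientations, and the RAG recombinase joins 1 of them to a Jκ element. Vκ genes in the same orientation as Jκ (forward) join by deletion of the DNA between them, and those in the opposite orientation (reverse) by inversion. In the normal order of development the heavy chain locus rearranges in pro-B cells and Igk mainly in pre-B cells, with some Igk joints made earlier. The question of this comparison was whether the Vκ genes used by pro-B cells differ when Wapl is no longer repressed.

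RAG cuts at the recombination signal sequence beside each Vκ gene, a heptamer and a nonamer that flank a spacer of 12 bases, just 3′ of the coding exon. By a search of the mm9 genome (NCBIM37) on the strand of each gene, for an exact CAC start and at least 12 of 16 letters of CACAGTG and ACAAAAACC, a signal of 28 bases was found for 125 of the 163 Vκ genes. The heptamer CACAGTG stood in 105 of the 125 (84.0%), and all 16 letters matched in 37 (29.6%). The signals of the genes that the results below turn on are printed 5′ to 3′ on the strand of the gene, with the heptamer and nonamer in capitals and the spacer in lower case.
Vκ3-10: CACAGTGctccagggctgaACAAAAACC
Vκ6-23: CACAGTGcttcagcctcctACATAAACC
Vκ19-93: CACAGTGatacaaatcataACAAAAACC
Vκ10-95: CACAATGatataagtcataACATAAACC
Vκ17-127: CACAGTGctatgtcctcttACAGAAACC
ENSMUSG00000076502: CACAGTGattcagacccgaACAAAAACT
The last is a Vκ1 gene given here by its Ensembl identifier and called the leading distal Vκ1 gene below, because it is the most used Vκ gene of wild-type pro-B cells. The signals lie at chr6:70523225-70523252 (+), chr6:70210375-70210402 (-), chr6:68686263-68686290 (-), chr6:68630843-68630870 (+), chr6:67811654-67811681 (+) and chr6:67560503-67560530 (+), in this order from the Jκ end to the far end of the array. Each is non-coding sequence that directly follows the V exon of its gene. The sequence printed for Vκ3-10 is identical in 8 genes (Vκ3-1, 3-2, 3-3, 3-4, 3-5, 3-7, 3-10 and 3-12), that of Vκ10-95 also in Vκ10-94 and 10-96, and that of Vκ17-127 also in Vκ17-121 and in 1 further Vκ17 gene, ENSMUSG00000091268.

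The authors deposited 1 percent value per Vκ gene and library for 163 Vκ genes, of which 77 are forward and 86 reverse and 92 are classed as functional. Wild-type libraries resolved the array more coarsely. Their smallest value above 0 was between 0.0398% and 0.610% of the library's joints, against 0.0145% to 0.0496% in the mutant, and 53 to 102 genes were listed at 0 against 55 to 65. Wild-type replicate 2 stood apart, with 102 genes at 0 and single steps of 0.610%, and is referred to as the coarsest library. In units of its own smallest value, the sum of a library was 164 in the coarsest library, 1191 to 2514 in the other wild-type libraries and 2016 to 6892 in the mutant. In mutant replicates 3 and 4 the smallest value, 0.0328% and 0.0145%, lay below the steps of 0.0656% and 0.0290% seen at other genes. Their sums are larger in these units for that reason, which overstates the difference from the wild type. Of the values above 0, 84.5% to 97.03% were whole multiples of the smallest value of their library, within 0.05 of a step. These sums give the resolution of the libraries but are not counts of joints, since what the smallest value stands for is not given in the sources used here. No counting interval is therefore given, and p-values measure the spread between libraries. The labels do not say whether libraries of a group came from separate mice. For genes at 0, low wild-type values may reflect this resolution, which was not tested. In each genotype 3 libraries carry experiment numbers of 1 series (starting 82) and 3 of another (starting 161), which no source calls a batch, and differences within each series are given where they bear on a result.

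Wapl(dP1,2/dP1,2) pro-B cells held more Igk joints than wild-type pro-B cells. The deposited percentages summed over all Vκ genes, a measure of how much Igk rearrangement a library held, were 0.0740% at the lowest, 0.145% at the median and 0.176% at the highest in Wapl(+/+), and 0.152%, 0.258% and 0.377% in Wapl(dP1,2/dP1,2). In 5 of the 6 mutant libraries the sum lay above that of every wild-type library, and the groups overlapped in 1 mutant library. The mean was 0.255% ± 0.0812 (SD, n = 6) in the mutant and 0.132% ± 0.0487 (SD, n = 6) in the wild type, a ratio of 1.92 (two-sided exact permutation test, p = 0.0152, adjusted over 3 library-wide measures 0.0227). The mutant mean was higher by 0.0906 in the first series and by 0.154 in the second. In pre-B cells the mean sum was 5.72% ± 0.820 (SD, n = 4) and 5.83% ± 0.731 (SD, n = 4). Pro-B cells thus held 2.31% of the pre-B level in the wild type and 4.37% in the mutant. A small admixture of pre-B cells in the pro-B gate would raise this sum, and its part in the difference was not tested. The total to which the deposited percentages refer is not given in the sources used here.

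**Figure D1:**
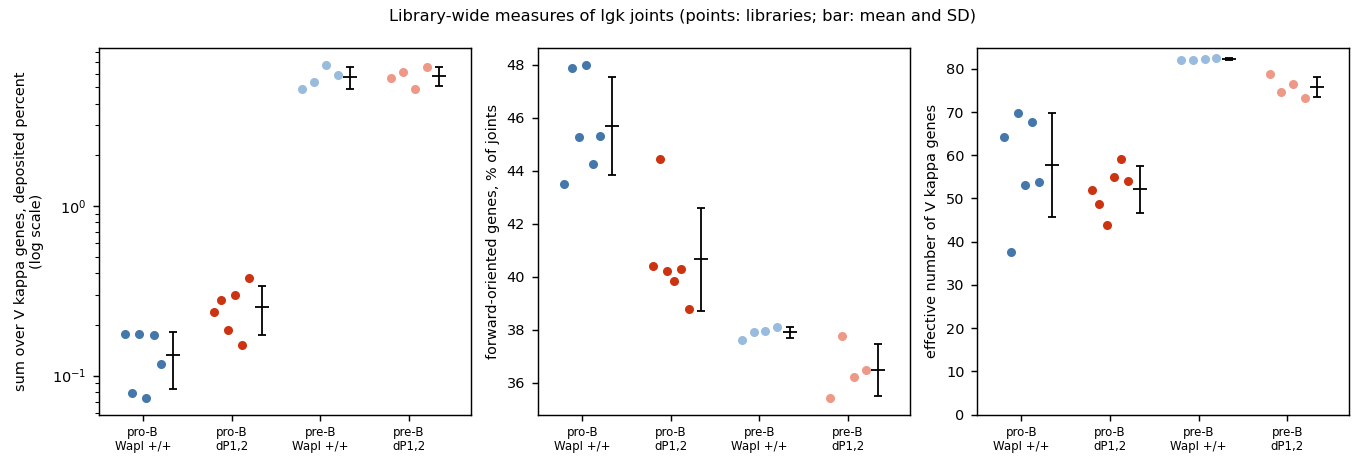
Sum of the deposited percentages over all Vκ genes (left, log axis), share of joints at forward-oriented genes (middle, % of joints, axis not from 0) and effective number of Vκ genes (right) in each pro-B and pre-B library. Points are libraries, bars mean and SD. Pro-B sums lie between 0.0740% and 0.377%, pre-B sums between 4.87% and 6.77%.

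The array was divided into 8 neighbouring segments that together hold every Vκ gene once, and the values of a library were rescaled to 100 so that each segment is a percentage of joints. In mutant pro-B cells the Jκ-proximal Vκ3 genes and the genes around E88 took a larger share, and the distal genes a smaller one. Vκ3-1 to 3-12-1, the segment nearest to Jκ, held 3.44% at the lowest, 4.06% at the median and 5.17% at the highest in the wild type, and 7.74%, 9.73% and 11.02% in the mutant. The segment from Vκ13-82 to 10-96, which surrounds an enhancer named E88, held 19.3%, 24.4% and 27.4% in the wild type, and 27.7%, 33.3% and 41.0% in the mutant. In both segments every mutant library lay above every wild-type library.

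At the far end of the array the order was the opposite. The distal segment, 18 genes at chr6:67661168-68006804, held 6.10% at the lowest, 9.21% at the median and 10.2% at the highest in the wild type, and 2.79%, 3.86% and 5.28% in the mutant. The most distal segment, 3 genes at chr6:67505630-67560502 that begin with the leading distal Vκ1 gene, held 10.9%, 11.9% and 17.1% in the wild type, and 5.06%, 7.59% and 8.996% in the mutant. Every mutant library lay below every wild-type library in both. These 4 segments had the smallest p that 6 against 6 libraries allow (two-sided exact permutation test, p = 0.00216, adjusted over 8 segments 0.00433), with differences of means of 5.33, 10.1, -5.12 and -5.55 percentage points from the proximal to the most distal. The bounds of the segments were set with the regions named by the study and earlier results of these data known, and the proximal, E88 and distal segments largely coincide with those regions, so these p-values are no independent evidence for the pattern. The differences were 5.35, 13.7, -5.23 and -5.64 points in the first series of experiment numbers and 5.31, 6.53, -5.01 and -5.47 points in the second.

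The 4 segments between them moved less or not beyond the spread between libraries. The segment Vκ6-13 to 8-34 fell from a mean of 10.99% ± 2.46 (SD, n = 6) to 7.01% ± 2.16 (SD, n = 6), with groups that overlapped (exact permutation test, adjusted p = 0.0277), and differed by -5.88 points in the first series and by -2.10 in the second. Leaving out 1 library brought its adjusted p to between 0.00693 and 0.0589, above 0.05 for 6 of the 12 libraries. Vκ1-35 to 12-49 had means of 7.60% ± 1.51 (SD, n = 6) and 5.85% ± 0.814 (SD, n = 6), with an adjusted p of 0.0519 by the same exact test. With 1 library left out this adjusted p ranged from 0.0242 to 0.101, below 0.05 for 3 of the 12 libraries, wild-type replicates 4 and 6 and mutant replicate 5. The large Vκ4 array, Vκ4-50 to 4-81, held 17.3% ± 1.75 and 18.9% ± 2.37 (SD, n = 6 each, exact permutation test, adjusted p = 0.230). The segment beyond E88 that begins at Vκ15-97, 26 genes at chr6:68016363-68541826, held 14.5% ± 1.91 and 13.9% ± 1.45 (SD, n = 6 each, exact permutation test, adjusted p = 0.574).

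**Figure D2:**
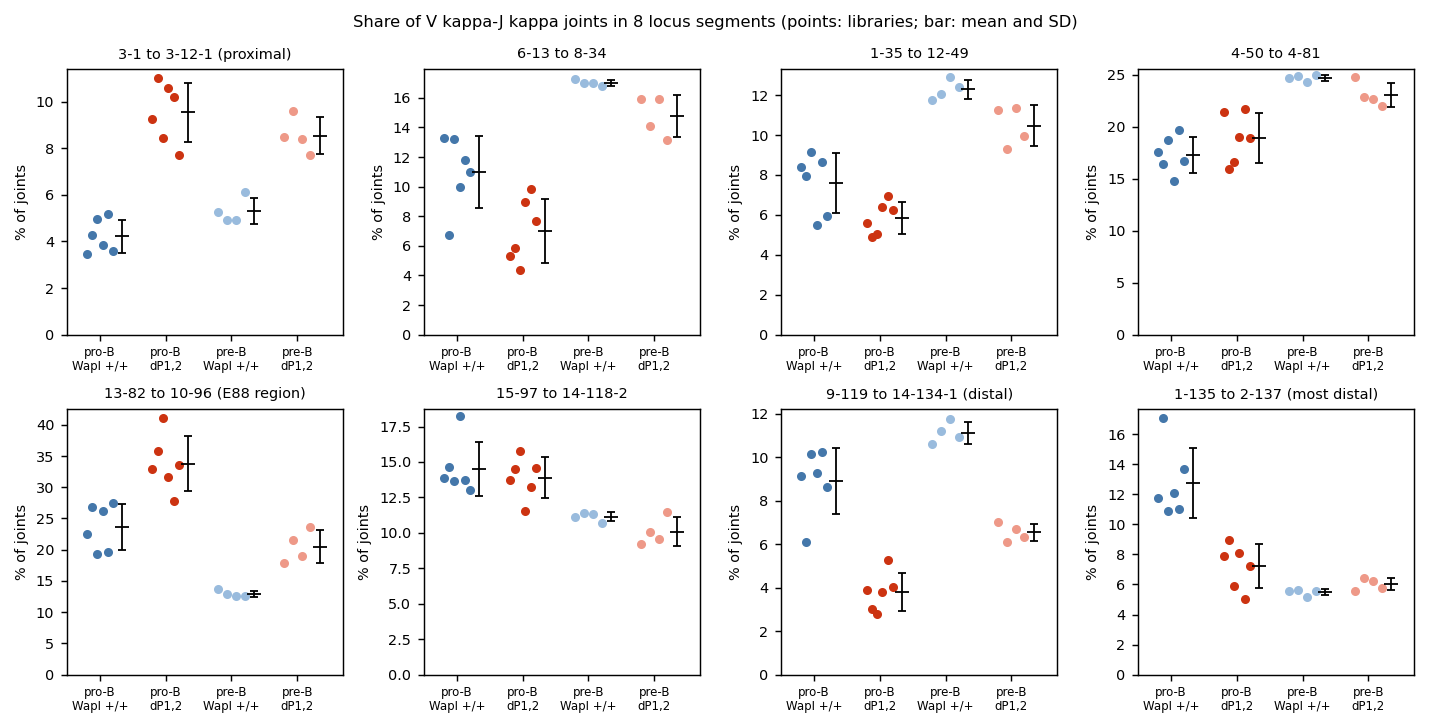
Share of joints (% of joints, axes from 0) in each of the 8 segments, ordered from Jκ-proximal to distal, in the 6 libraries per genotype of pro-B cells and the 4 per genotype of pre-B cells. Points are libraries, bars mean and SD. Mutant and wild-type pro-B libraries do not overlap in the proximal, the E88, the distal and the most distal segments.

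A share can fall because other genes gain, so the segments were also summed as deposited, without rescaling. On this scale the gains remained and most of the losses did not. The proximal segment had a mean of 0.00569 ± 0.00266 in the wild type and 0.0241 ± 0.00738 in the mutant (deposited percent, SD, n = 6 each), a ratio of 4.23. The E88 segment had means of 0.0301 ± 0.00800 and 0.0861 ± 0.0283, a ratio of 2.87. Both groups of libraries lay apart again in these segments (exact permutation test, adjusted p = 0.00866 for each). The Vκ4 array (ratio 2.03, adjusted p = 0.0346 by the exact test) and the Vκ15-97 segment (ratio 1.88, adjusted p = 0.0231 by the exact test), which did not differ as shares, were higher in the mutant as deposited. Both ratios lie near the 1.92 of the sum over all Vκ genes, so they repeat the difference in that sum. With a larger sum, a segment that gained in share is also higher as deposited almost by construction.

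The distal segment, in contrast, had overlapping deposited levels. They ran from 0.00481 over a median of 0.0131 to 0.0178 in the wild type and from 0.00518 over 0.00882 to 0.0152 in the mutant, a ratio of means of 0.780 (exact permutation test, adjusted p = 0.465). The most distal segment ran from 0.00897 over 0.0176 to 0.0207 in the wild type and from 0.00767 over 0.0215 to 0.0273 in the mutant, a ratio of means of 1.17 (exact permutation test, adjusted p = 0.534). For Vκ6-13 to 8-34 the ratio was 1.16 (exact permutation test, adjusted p = 0.587) and for Vκ1-35 to 12-49 1.41 (exact permutation test, adjusted p = 0.294). These p-values do not show that the levels were equal. Of the difference of 0.122 between the mean sums of the genotypes, the E88 segment made up 45.9%, the Vκ4 array 19.8%, the proximal segment 15.1% and the Vκ15-97 segment 13.5%, while the distal segment contributed -2.20% and the most distal 2.27%.

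**Figure D3:**
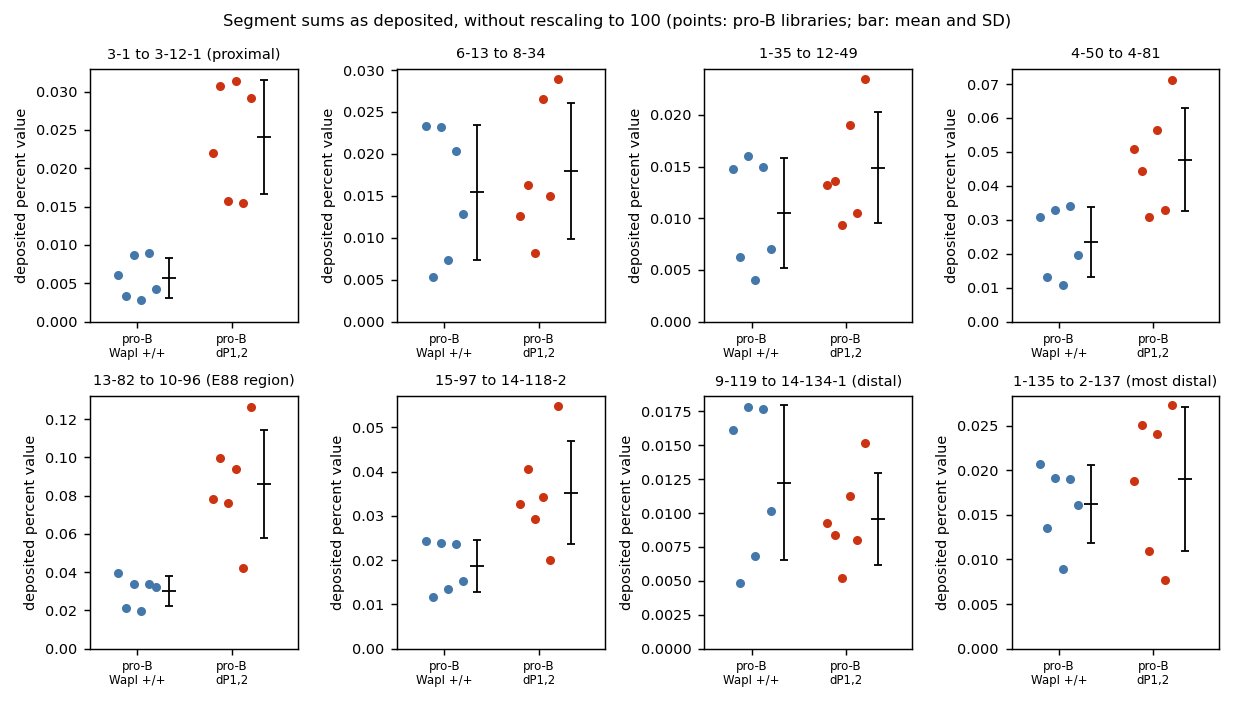
Sum of the deposited percentages, without rescaling to 100, in each of the 8 segments for the 6 Wapl(+/+) and the 6 Wapl(dP1,2/dP1,2) pro-B libraries (axes from 0). Points are libraries, bars mean and SD. The genotypes lie apart in the proximal and E88 segments and overlap in the distal and most distal segments.

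Single Vκ genes were tested with limma on log2 of the percentage of joints plus 0.05. Of the 163 genes 104 entered, those whose shares averaged 0.05% or more across both genotypes. Among them Vκ4-52 and 4-54 had the same value in every library, so they are not separate measurements, and neither was called. At an adjusted p below 0.05, 27 genes (26.0%) differed, 13 of them higher (12.5%) and 14 lower (13.5%) in the mutant, against 40 at an unadjusted p below 0.05. The higher genes were Vκ3-5, 3-7, 3-10, 3-12, 5-48, 4-53, 4-79, 4-86, 1-88, 12-89, 4-92, 19-93 and 10-95. The lower genes were Vκ6-13, 8-16, 6-17, 6-23, 8-23-1, 12-41, 17-121, 1-122, 11-125, 17-127, 1-132, the leading distal Vκ1 gene, the Vκ1 gene ENSMUSG00000076503 (chr6:67674908-67675655) and the Vκ2 gene ENSMUSG00000076501 (chr6:67505630-67506210), which is the last of the array. Every mutant library lay above, or every one below, all wild-type libraries at 16 of the 104 genes (15.4%), of which 15 were called, 9 higher and 6 lower. The log2 fold changes of the 104 genes had their median at -0.26. The split of the calls depends on the scale: with each library centred on its median gene, which shifts every log2 fold change by 0.33, 17 were higher and 5 lower, and on the deposited values 24 were higher (23.1%) and 1 lower (0.962%). The coarsest library also weighed on the count: without it 49 genes were called, 17 higher (16.3%) and 32 lower (30.8%), the 27 genes among them, while without mutant replicate 2 the count was 16. With each of the 12 libraries left out in turn, 14 of the 27 kept their call every time, 7 higher (Vκ3-5, 3-7, 3-10, 3-12, 4-79, 1-88 and 10-95) and 7 lower (Vκ6-23, 8-23-1, 12-41, 17-121, 1-122, 17-127 and the leading distal Vκ1 gene).

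**Figure D4:**
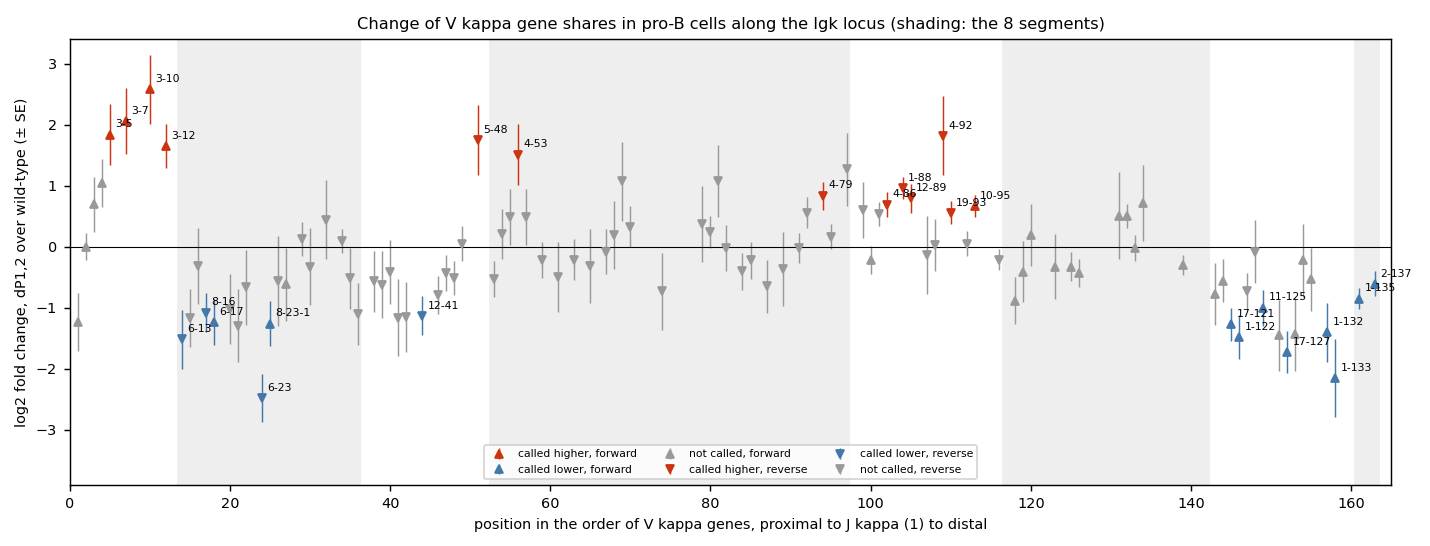
Log2 fold change of the share of joints (Wapl(dP1,2/dP1,2) over Wapl(+/+), ± SE) of the 104 tested Vκ genes, placed by their order in the array from the Jκ-proximal end. Red marks the 13 higher and blue the 14 lower genes with a limma adjusted p below 0.05. Triangles pointing up are forward-oriented genes and those pointing down reverse-oriented genes. Red symbols gather at the proximal end and around 4-86 to 10-95, blue ones in the second segment and at the distal end.

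In the proximal segment 4 of 8 tested genes were called higher, against 12.5% of all genes, and none lower. Vκ3-10 (chr6:70522627-70523224, forward strand) was listed at 0 in the coarsest library and otherwise at a median of 0.767% and at most 0.955% in the wild type, the median being over all 6 libraries. In the mutant its lowest, median and highest shares were 2.44%, 3.12% and 3.54%. All mutant libraries lay above all wild-type libraries, with a log2 fold change of 2.58 ± 0.56 (SE, limma adjusted p = 0.00468), the largest of the 13. Without the coarsest library, where it is at 0, the log2 fold change of Vκ3-10 was 1.91. Vκ3-5 is near-identical in sequence to Vκ3-10, and how reads that fit both were assigned is not given in the sources used here. It had a lowest, median and highest share of 0%, 0.304% and 0.557% in the wild type and 0.835%, 0.916% and 1.41% in the mutant.

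Vκ3-7 (chr6:70557732-70558030, forward) had shares of 0%, 0.388% and 0.915% in the wild type and 1.05%, 1.52% and 2.15% in the mutant, with a log2 fold change of 2.06 ± 0.54 (SE, limma adjusted p = 0.0173). Vκ3-12 (chr6:70468244-70468843, forward) had shares of 0.143%, 0.515% and 0.716% in the wild type and 1.05%, 1.33% and 1.63% in the mutant. It was above 0 in all 12 libraries, and its log2 fold change was 1.65 ± 0.36 (SE, limma adjusted p = 0.00468). For all 4 called genes the genotypes did not overlap.

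The 2 genes next to Jκ, Vκ3-1 and 3-2, were not called with all libraries. Vκ3-2 had a lowest, median and highest share of 0.862%, 1.20% and 1.498% in the wild type and 0.879%, 1.10% and 1.81% in the mutant. The groups overlapped, with a log2 fold change of 0.00 ± 0.22 (SE, limma adjusted p = 0.997). Vκ3-1, the gene nearest to Jκ, had shares of 0.278%, 0.325% and 1.22% in the wild type and 0.0496%, 0.207% and 0.348% in the mutant (log2 fold change -1.24 ± 0.48 SE, limma adjusted p = 0.0676). Vκ3-4 had shares of 0.168%, 0.449% and 1.22% in the wild type and 0.742%, 0.971% and 1.49% in the mutant (log2 fold change 1.05 ± 0.39 SE, limma adjusted p = 0.0582). Without the coarsest library both passed, Vκ3-4 as higher with a log2 fold change of 1.30 (limma adjusted p = 0.000742) and Vκ3-1 as lower with one of -0.97 (limma adjusted p = 0.0475). The highest wild-type value of both Vκ3-1 and 3-4 was that of the coarsest library. Vκ3-1, 3-2 and 3-4 carry the same recombination signal as the 4 genes that rose. As deposited values, without rescaling, the log2 fold change was 1.94 ± 0.48 for Vκ3-4 (SE, limma adjusted p = 0.00150), 0.93 ± 0.42 for Vκ3-2 (adjusted p = 0.0941) and -0.39 ± 0.59 for Vκ3-1 (adjusted p = 0.679).

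In the E88 segment 6 of 13 tested genes were called higher, against 12.5% of all genes, and none lower, against 13.5%. Vκ19-93 (chr6:68686291-68686758, reverse) led all 6 mutant libraries, whereas the leading distal Vκ1 gene led all 6 wild-type libraries. The share of Vκ19-93 was 4.36% at the lowest, 6.83% at the median and 9.49% at the highest in the wild type and 8.04%, 9.96% and 12.7% in the mutant. The groups overlapped, with a log2 fold change of 0.56 ± 0.19 (SE, limma adjusted p = 0.0384), and this call was lost for 7 of the 12 libraries left out in turn. Vκ4-92 (chr6:68705032-68705587, reverse) was listed at 0 in the coarsest library, and its lowest, median and highest shares were 0%, 1.10% and 1.78% in the wild type and 2.13%, 2.42% and 3.67% in the mutant. The groups lay apart, although the call was lost for 9 of the 12 libraries left out.

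Vκ1-88 (chr6:68812259-68813025, reverse) rose from a mean of 1.90% ± 0.311 to 3.79% ± 0.942 (SD, n = 6 each), with no overlap and a log2 fold change of 0.96 ± 0.19 (SE, limma adjusted p = 0.00293). Vκ4-86 had shares of 1.57%, 1.92% and 3.05% in the wild type and 2.38%, 3.19% and 4.92% in the mutant, which overlapped. Vκ12-89 rose from a mean of 0.610% ± 0.158 to 1.08% ± 0.171 (SD, n = 6 each). Vκ10-95 (chr6:68630556-68630842, forward) had shares of 2.29%, 2.89% and 4.47% in the wild type and 4.29%, 4.69% and 6.56% in the mutant, which overlapped, with a log2 fold change of 0.66 ± 0.18 (SE, limma adjusted p = 0.0206).

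The neighbours of Vκ10-95, which share its recombination signal with the heptamer CACAATG but lie in reverse orientation, had no call. Vκ10-94, near-identical to Vκ10-95, had a mean of 1.87% ± 0.473 in the wild type and 1.92% ± 0.393 in the mutant (SD, n = 6 each, limma adjusted p = 0.875). As for Vκ3-5 and 3-10, the assignment of reads that fit both is not known, so their values are uncertain. Vκ10-96 had means of 3.16% ± 0.504 and 2.74% ± 0.543 (SD, n = 6 each, limma adjusted p = 0.423).

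Between the proximal and E88 segments, 3 further genes were called higher, all reverse. Vκ5-48 was at 0 in the coarsest library, with a lowest, median and highest share of 0%, 0.692% and 1.23% in the wild type and 1.34%, 1.68% and 1.87% in the mutant. The other two, Vκ4-53 and 4-79 of the Vκ4 array, had means of 0.380% ± 0.203 and 0.769% ± 0.221 in the wild type and 0.929% ± 0.130 and 1.39% ± 0.271 in the mutant (SD, n = 6 each). The genotypes lay apart for all 3. The calls of Vκ5-48 and 4-53 were lost for 7 and 8 of the 12 libraries left out in turn. In the segment Vκ4-50 to 4-81 2 of 27 tested genes were thus called higher, against 12.5% of all genes, and none lower, against 13.5%.

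All 14 tested genes of the distal segment had a negative log2 fold change, while 40 of all 104 tested genes had a positive one. In the distal segment 6 were called lower, against 13.5% of all genes. Vκ17-127 (chr6:67811153-67811653, forward) had a lowest, median and highest share of 0.610%, 1.04% and 1.85% in the wild type and 0.131%, 0.320% and 0.446% in the mutant. Its near-identical relative Vκ17-121, from which reads may not be separable, (chr6:67986812-67987312, forward) had shares of 1.10%, 1.43% and 1.75% in the wild type and 0.289%, 0.510% and 0.942% in the mutant. For both genes every mutant library lay below every wild-type library, with log2 fold changes of -1.72 ± 0.34 (SE, limma adjusted p = 0.00293) and -1.27 ± 0.27 (SE, limma adjusted p = 0.00468). Vκ1-122 also lay apart, with shares of 0.336%, 0.485% and 0.955% in the wild type and 0.0656%, 0.165% and 0.217% in the mutant.

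The 3 other calls of this segment had groups that overlapped. Vκ11-125 fell from a mean of 1.51% ± 0.583 to 0.682% ± 0.139 (SD, n = 6 each). Vκ1-132 and ENSMUSG00000076503 are little used: they were listed at 0 in 1 wild-type library each, and in 4 and 3 mutant libraries. Their highest values were 0.357% and 1.22% in the wild type, the latter in the coarsest library, and 0.0656% and 0.132% in the mutant.

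The leading distal Vκ1 gene (ENSMUSG00000076502, chr6:67559739-67560502, forward) had a lowest, median and highest share of 9.23%, 10.6% and 15.9% in the wild type and 4.37%, 6.65% and 7.62% in the mutant. The highest value was that of the coarsest library, and the groups did not overlap. Its log2 fold change was -0.85 ± 0.17 (SE, limma adjusted p = 0.00293). As deposited values its levels overlapped, at 0.00808, 0.0151 and 0.0180 in the wild type and 0.00661, 0.0189 and 0.0238 in the mutant, with a log2 fold change of 0.12 ± 0.28 (SE, limma adjusted p = 0.829). The Vκ2 gene ENSMUSG00000076501 had shares of 1.21%, 1.49% and 1.79% in the wild type and 0.694%, 0.941% and 1.37% in the mutant. These overlapped, and its call was lost for 9 of the 12 libraries left out.

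The remaining 6 lower genes lie between the proximal and Vκ4 segments. In the segment that holds Vκ6-23, 5 of 18 tested genes were called lower, against 13.5% of all genes, and none higher. In the next segment, beside the Vκ4 array, 1 of 11 tested genes was called lower and 1 higher, against 13.5% and 12.5% of all genes. Among the 6 lower genes, Vκ6-23 (chr6:70210403-70210927, reverse) stood out. Its lowest, median and highest shares were 0.588%, 0.918% and 1.22% in the wild type and 0.0361%, 0.0971% and 0.248% in the mutant. No library of the mutant reached the lowest of the wild type, and the log2 fold change was -2.48 ± 0.39 (SE, limma adjusted p = 0.00100). It was also the 1 gene of the 14 that was called lower on the deposited values, with a log2 fold change of -1.69 ± 0.55 (SE, limma adjusted p = 0.0185), although its deposited levels overlapped. Of the 14, the fold change on the deposited values was above 0 for 2 genes, ENSMUSG00000076502 and ENSMUSG00000076501, both of the most distal segment. All 13 higher genes were called higher on that scale as well. The larger sum over all Vκ genes in the mutant, a ratio of 1.92, lifts the fold changes there. The repeat of these 13 calls therefore adds no support to them. Vκ6-14, which carries the same recombination signal as Vκ6-23, had a median share of 0.162% in the wild type and 0.0443% in the mutant, with a log2 fold change of -1.16 ± 0.48 (SE, limma adjusted p = 0.0796).

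Vκ12-41 lay apart between the genotypes, with shares of 0.610%, 0.753% and 1.03% in the wild type and 0.131%, 0.392% and 0.446% in the mutant. The other four had groups that overlapped. Vκ8-16, 6-17 and 8-23-1 had means of 1.04% ± 0.341, 0.496% ± 0.110 and 0.981% ± 0.245 in the wild type and 0.479% ± 0.227, 0.195% ± 0.0985 and 0.429% ± 0.275 in the mutant (SD, n = 6 each). Vκ8-16 and 8-23-1 had similar shares in most libraries. Examples are 1.33% and 1.25% in wild-type pro-B replicate 6, and 1.91% and 1.95% in wild-type pre-B replicate 1. Whether these genes share reads was not tested, so they may not be separate calls. Vκ6-13 was at 0 in 3 mutant libraries, with a highest share of 0.610% in the wild type, again in the coarsest library, and 0.0656% in the mutant.

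**Figure D5:**
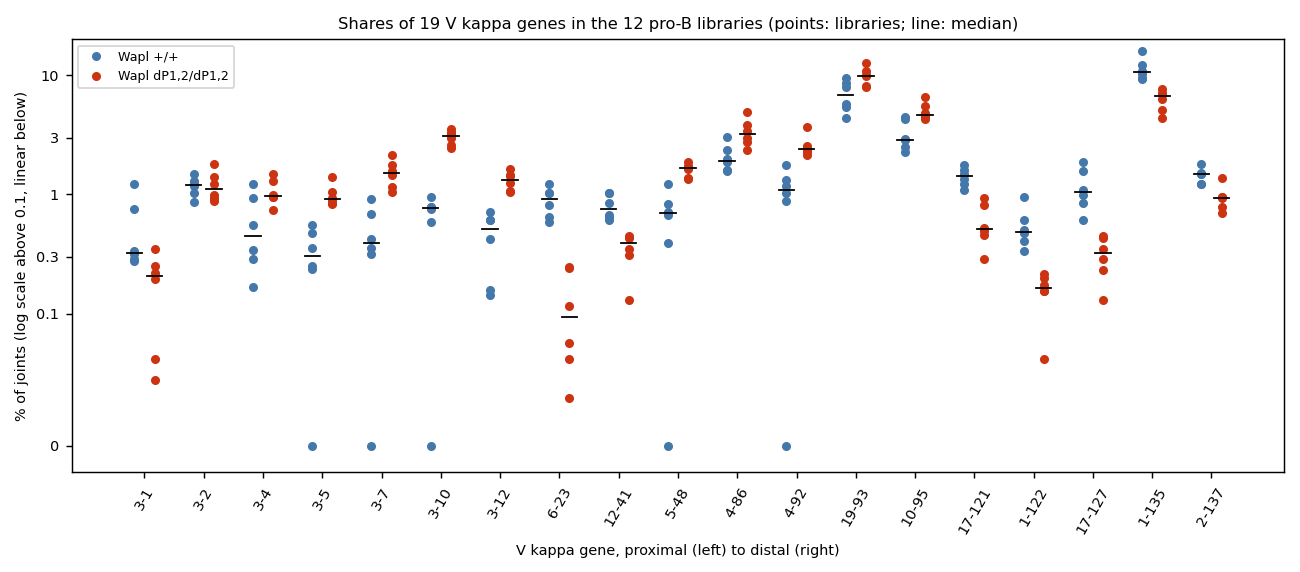
Share of joints (% of joints, log scale above 0.1 and linear below) of 19 Vκ genes in the 6 Wapl(+/+) and the 6 Wapl(dP1,2/dP1,2) pro-B libraries, ordered from Jκ-proximal to distal. Points are libraries, lines medians. Vκ3-10 reaches at most 0.955% in the wild type and at least 2.44% in the mutant, and the leading distal Vκ1 gene, second from the right, at least 9.23% and at most 7.62%.

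By sequence family, the number before the hyphen, calls went 1 way in most families with more than 1 call. The Vκ4 family had 4 higher and no lower genes of 32 tested and a median of 0.18 on the log2 scale, a share of higher genes equal to the 12.5% of all tested genes. The Vκ6 family had 3 lower of 8 tested, with a median of -1.20, and the Vκ8 family 2 lower of 9, with a median of -0.66, against 13.5% lower among all tested genes. Family and place coincide for Vκ3, all of whose genes lie in the proximal segment. The Vκ1 and Vκ12 families, whose genes lie in several segments, held calls in both directions among 8 and 7 tested genes, with Vκ1-88 higher and Vκ1-122, 1-132, ENSMUSG00000076503 and ENSMUSG00000076502 lower, and with Vκ12-89 higher and Vκ12-41 lower.

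The regions that the study names were chosen on libraries of this series, the proximal and central ones on pro-B as well as pre-B cells and the distal one on pre-B cells, and their values are given without a test. Vκ3-4 to 3-12 held 2.45% ± 0.764 in the wild type and 8.06% ± 0.958 in the mutant, Vκ4-86 to 10-95 held 18.1% ± 3.46 and 28.2% ± 4.59, and Vκ9-120 to ENSMUSG00000076503 held 8.82% ± 1.45 and 3.77% ± 0.867 (SD, n = 6 each). They showed the same order of the genotypes as the segments that contain them. The study gives the far end of the distal region as a Vκ11 name that its gene list does not hold. The Vκ1 gene ENSMUSG00000076503 was used as that end here.

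All 16 letters of the heptamer and nonamer matched in 7 of the 13 higher genes and in 1 of the 13 lower genes with a signal found, against 35 of the 100 tested genes with one. This is a description of the called genes, several of which share a signal, and was looked at after the calls were known.

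Forward-oriented genes took a smaller share in the mutant. Their share was 43.5% at the lowest, 45.3% at the median and 48.0% at the highest in the wild type and 38.8%, 40.2% and 44.4% in the mutant, a difference of means of -5.04 points (two-sided exact permutation test, p = 0.00649, adjusted over 3 measures 0.0195). The groups overlapped in mutant replicate 2, which held the 44.4%. The leading gene of each genotype bore on this value. Without the leading distal Vκ1 gene, which is forward, and Vκ19-93, which is reverse, the forward share was 42.1% ± 2.39 in the wild type and 41.1% ± 2.50 in the mutant (SD, n = 6 each), a difference of -1.03 points (exact permutation test, adjusted p = 0.489). Leaving out a forward gene that fell and a reverse gene that rose makes the difference smaller by construction. Within the calls, forward genes were 5 higher and 10 lower of 38 tested, and reverse genes 8 higher and 4 lower of 66, against 12.5% higher and 13.5% lower among all tested genes. The share of higher genes was near this background in both orientations, while that of lower genes was above it among forward and below it among reverse genes.

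The spread of joints over genes did not pass the test with all libraries. The effective number of Vκ genes, the number of equally used genes that would give the same Shannon entropy, was 37.7 at the lowest, 59.0 at the median and 69.7 at the highest in the wild type and 43.8, 53.0 and 59.1 in the mutant (difference of means -5.62, two-sided exact permutation test, p = 0.323). The lowest value was that of the coarsest library. Without it the mean difference was -9.62 (exact permutation test, adjusted p = 0.0476). Genes of other classes than functional took 5.74% ± 1.17 of joints in the wild type and 3.93% ± 0.490 in the mutant (SD, n = 6 each), and 1 of 14 tested, Vκ8-23-1, was called, against 26.0% of all tested genes.

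The genotype differences in pro-B cells were then set beside those in pre-B cells, and at single genes the difference between them was tested. In pre-B cells the mutant differed by 3.24 points in the proximal segment, 7.60 points in the E88 segment and -4.58 points in the distal segment, in the same direction as in pro-B cells. In the most distal segment it differed by 0.512 points in pre-B cells and by -5.55 points in pro-B cells. The share of that segment in wild-type pre-B cells, 5.50% ± 0.209 (SD, n = 4), was also below the 12.8% ± 2.34 (SD, n = 6) of wild-type pro-B cells. The effect in pro-B cells minus that in pre-B cells was 2.09 points in the proximal segment and -6.07 points in the most distal segment. An exact permutation of the cell types within each genotype gave an adjusted p of 0.0995 for both and a larger one for the other 6 segments. Its reference values also carry the difference between the cell types that the genotypes share, so nothing is read from these p-values about whether the genotype effects differ.

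At single genes the limma interaction term passed for 2 of 106 genes (1.89%), against 9 at an unadjusted p below 0.05. The leading distal Vκ1 gene had shares of 4.43% ± 0.183 in wild-type and 4.87% ± 0.330 in mutant pre-B cells (SD, n = 4 each). Its log2 genotype effect was 0.13 in pre-B cells and -0.85 in pro-B cells, a difference of -0.98 ± 0.21 (SE, limma adjusted p = 0.0110). Vκ6-23 had 0.965% ± 0.0645 in wild-type and 0.727% ± 0.145 in mutant pre-B cells (SD, n = 4 each), with a log2 genotype effect of -0.40 against -2.48 in pro-B cells, a difference of -2.08 ± 0.47 (SE, limma adjusted p = 0.0110). The share of Vκ6-23 in wild-type pro-B cells was thus close to that in wild-type pre-B cells, and the library spread was wider in pro-B cells. Without the coarsest library 10 genes passed. The effect was more positive in pro-B cells for 3 of them, Vκ3-10, 5-48 and 4-53, and more negative for 7, Vκ6-17, 6-23, 5-39, 9-123, 14-126, the leading distal Vκ1 gene and the Vκ2 gene ENSMUSG00000076501.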

How the data were processed

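The Vκ values are percentages that the authors deposited, 1 table per library. Per the study's methods, sheared genomic DNA was ligated to adapters with molecular identifiers, captured with Jκ primers and sequenced on a MiSeq instrument. The labels list Bowtie2 2.2.9, SAMtools 1.4 and the build mm9 for the series as a whole. For H3K27ac, in pro-B cells of a Rag1(Cre/Cre) mouse, the authors deposited a peak list whose score column is 0 throughout. The Igh libraries were not used and Hi-C was not analysed here.

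Each library was rescaled to 100 over all 163 genes. Gene order, orientation and class follow the study's gene list, and coordinates GENCODE vM1 on NCBIM37 (98 genes matched by name and position). Genes at 97% identity or more over 90% of the length (blastn 2.17.0+) count as near-identical, which held for 14. Genes were tested with limma 3.58.1 (R 4.3.3, empirical Bayes trend, Benjamini-Hochberg at 0.05) on pro-B libraries only, and the interaction on all 20 Igk libraries. Sums were tested by exact permutation over all 924 splits (smallest p 0.00216), and the segment interaction over 44100 assignments (Python 3.11.15). Scripts were tested on simulated data. Every called gene is named. Values in all libraries are given for the 6 higher and 6 lower called genes with the largest change and no overlap, and for the genes leading the repertoire or named by the study. Members, segments and lists were chosen with earlier results of these data known, and recombination signals after the values were seen. Alternatives were the pseudocount, filter, scaling, adjustment, weights, series and each library left out.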

Additional observations from a re-analysis of the deposited data

Results flagged for a closer look

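Of the values examined library by library, 5 stood apart from the others of their group by more than Dixon's 95% critical value allows, among 82 groups of 6, where chance gives about 1 in 20. The forward-oriented share of mutant replicate 2 was 44.4%, against 40.4% in the next mutant library. Wild-type replicate 4 held 18.3% of its joints in the segment that begins at Vκ15-97, against 14.6% in the next. Vκ6-13 was at 0.610% in wild-type replicate 2, the coarsest library, against 0.204% in the next. Vκ4-92 was at 3.67% in mutant replicate 3, against 2.55%, and the Vκ1 gene ENSMUSG00000076503 at 0.132% in mutant replicate 6, against 0.0390%.

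At 2 genes the genotype difference itself differed between pro-B and pre-B cells by the limma interaction term. The log2 effect in pro-B cells minus that in pre-B cells was -2.08 for Vκ6-23 and -0.98 for the leading distal Vκ1 gene.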

How the results depend on the processing

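Of 81 alternatives to the 21 library-wide, segment and count results, other than leaving out a library, 66 kept direction and side of the threshold or, for the series of experiment numbers alone, which give no p, moved by less than 1 SD between libraries, which for the Vκ15-97 segment included a change of sign (0.638 points in the first series). The genotype differences of the proximal and E88 segments in pro-B cells kept their direction under every alternative run and their side of the threshold under those with a test. On the deposited scale the differences were 0.00250 for Vκ6-13 to 8-34, 0.00436 for Vκ1-35 to 12-49, 0.0165 for the Vκ15-97 segment and 0.00277 for the most distal segment, all opposite in sign to the shares. They were -0.00269 for the distal segment, no longer past the threshold, and 0.0242 for the Vκ4 array, now past it. ENSMUSG00000076502 (0.12) and ENSMUSG00000076501 (0.32) also turned positive there on the log2 scale. Without the leading gene of each genotype the forward share differed by -1.03, Vκ1-35 to 12-49 by -2.30 points, now past the threshold, and Vκ3-2 by -0.034 on the log2 scale. Vκ1-35 to 12-49 differed by -3.31 points in the first series of experiment numbers and by -0.18 in the second. The series alone, with 3 against 3 libraries, cannot give an exact p below 0.1. As a difference of log2 ratios the interaction was -0.13 for Vκ1-35 to 12-49 and -0.14 for the E88 segment, opposite in sign to the difference in points. Holm's adjustment left 7 genes, a pseudocount of 0.01 gave 19 (7 higher, with Vκ3-5 and 3-7 at a limma adjusted p of 0.0540) and one of 0.5 gave 36, array weights gave 49 and put Vκ3-2 at -0.068, and the interaction without the coarsest library gave 10. Values under the coarsest library's smallest value set to 0, chosen after seeing the data, did not change the call of the effective number.

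With each library left out in turn, the called genes numbered 16 (without mutant replicate 2) to 49 (without wild-type replicate 2). The differences ranged from -4.84 to -3.46 points for Vκ6-13 to 8-34, from -2.17 to -1.44 for Vκ1-35 to 12-49, from -1.004 to 0.12 for the Vκ15-97 segment, positive without wild-type replicate 4, and from -9.62 to -3.21 for the effective number. Vκ3-2, near 0, ranged from -0.12 to 0.078 and was negative for 5 of the 12. The level ranged from 0.0977 to 0.143 and the forward share from -5.80 to -4.58 with every call kept. No paired analysis was possible because the labels give the libraries no replicate numbers, and the numbers used here only name libraries in the order they are listed. Depth limits genes under about 0.6% of joints, which the coarsest library cannot resolve, and an unknown total leaves no counting error for a gene at 0.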

Other observations

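The H3K27ac peak list of Rag1(Cre/Cre) pro-B cells, which belongs to neither genotype, holds 1 peak within the span of the Vκ genes, at chr6:69989959-69992717 (mm9). It lies 1389 bases from Vκ8-34 and 15909 bases from Vκ7-33. Neither gene was called in the pro-B comparison. No peak of this list lies in the E88 segment.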
